A study of Ovis aries with 62 samples.

Results

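The ventral rumen wall of 62 adult sheep was sequenced through its full thickness, so that each library mixed RNA of the muscle layers, the connective tissue and the epithelium. Described here are the libraries richest and poorest in muscle transcripts, chosen by the mean level of NEXN (ENSOARG00000013187) and KCNMA1 (ENSOARG00000009163). Within each of blocks 2, 3 and 4, the 5 sheep with the highest and the 5 with the lowest mean were taken, which gave 15 muscle-rich and 15 muscle-poor sheep of the 46 in those blocks. The other 16 sheep of blocks 2 to 4 are called the middle sheep, and the 16 sheep of block 1 took no part in the choice. All sheep were Merino ewes fed the same diet without any treatment, blocks were test periods, and each library came from 1 sheep. The labels do not give sire, so relatives could not be accounted for, and each p measures the spread between sheep.

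The rumen wall carries smooth muscle, whose contraction mixes and moves the digesta, beneath a stratified epithelium that absorbs short chain fatty acids and turns butyrate into ketone bodies. NEXN encodes an actin-binding protein of contractile cells and KCNMA1 the pore of a calcium-activated potassium channel of smooth muscle. Since a library is a fixed pool of reads, a wall sample with more muscle RNA holds a smaller share of epithelial RNA. In such bulk samples, fewer cells of a type and less RNA per cell cannot be told apart.

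The score, the mean of NEXN and KCNMA1 on the log2 CPM scale (CPM, counts scaled for library size), had a lowest value of 6.13, a median of 6.59 and a highest value of 7.07 in muscle-rich sheep, against 4.02, 5.37 and 5.92 in muscle-poor sheep. The groups do not overlap in the score because the score formed them. The innermost muscle-rich sheep and the next sheep outside the group scored 6.52 and 6.52 in block 2, 6.14 and 6.13 in block 3, and 6.13 and 6.11 in block 4. At the other end, the innermost muscle-poor sheep and the next sheep outside scored 5.50 and 5.51 in block 2, 5.92 and 5.96 in block 3, and 5.53 and 5.68 in block 4. The edges of the groups were therefore close to their neighbours, apart from the muscle-poor edge of block 4.

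NEXN itself ranged from 6.34 to 7.47 log2 CPM in muscle-rich sheep and from 4.15 to 6.07 in muscle-poor sheep. KCNMA1 ranged from 5.56 to 6.74 and from 3.82 to 5.85, so that single sheep overlapped for this gene. Both chose the sheep and were left out of every count below.

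The label was checked on 2 further smooth muscle genes. CNN1 (calponin, an actin-binding regulator of smooth muscle contraction) had a lowest, median and highest level of 9.54, 11.10 and 12.28 log2 CPM in muscle-rich sheep and of 8.95, 9.53 and 10.78 in muscle-poor sheep. LMOD1 (leiomodin, which nucleates actin filaments in smooth muscle) had 6.55, 7.14 and 7.71 against 4.96, 6.12 and 6.94. For each gene 11 of the 15 muscle-rich sheep lay above every muscle-poor sheep, and the groups overlapped. Ranked by CNN1 and LMOD1 instead, 12 of the 15 muscle-rich and 12 of the 15 muscle-poor sheep fell into the same group, while 2 sheep of block 3 fell into the opposite one.

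**Figure D1:**
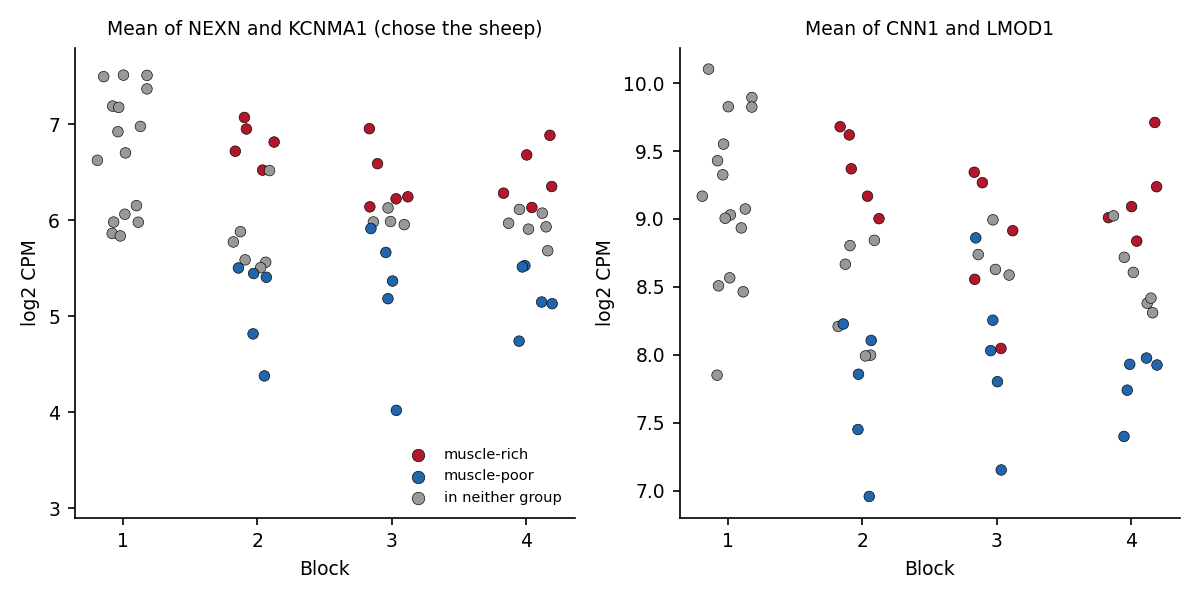
Score of each sheep by block (left, mean of NEXN and KCNMA1) and the mean of CNN1 and LMOD1 in the same sheep (right), both in log2 CPM, with points coloured by group. The 16 sheep of block 1 reach 7.51 on the left, above the highest sheep of blocks 2 to 4 at 7.07, and in block 3 a muscle-rich sheep on the left lies among the muscle-poor sheep on the right.

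Depth moved with the groups. Assigned reads per library ran from 5886818 to 12130080 with a median of 9481882 in muscle-rich sheep, and from 4208032 to 11009866 with a median of 8162605 in muscle-poor sheep. The part of depth in the differences below was not tested.

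Which genes go with the muscle side of the wall and which with the epithelial side was described by the difference of each gene between the groups, with block as a factor. Of 16009 genes, 2173 (13.6%) were higher and 1938 (12.1%) were lower in muscle-rich sheep at an adjusted p under 0.05 in limma. These counts sort genes and are no test, since 2 genes of the same libraries had chosen the sheep. The median difference over all genes was -0.03 on the log2 scale. With each library centred on its own median the counts were 1906 higher and 2733 lower, so the number of lower genes depends on the scaling. Without block 2 they were 1137 and 822, and without block 4 they were 1441 and 1052.

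The sorting was tested in block 1, as the slope of each gene on the score over 16 sheep that had no part in it. There 1218 genes (7.61%) rose and 849 (5.3%) fell with the score in limma at an adjusted p under 0.05. Of the genes higher in muscle-rich sheep, 95.0% had a positive slope in block 1, and of those lower, 90.6% had a negative slope, while 49.0% of all genes had a positive and 51.0% a negative slope. In both comparisons, 998 genes (6.23%) lay on the muscle side and 475 (2.97%) on the epithelial side, and 2 genes went opposite ways.

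Block 1 has a limit of its own. Its scores ran from 5.84 to 7.51 with a gap between 6.15 and 6.63 that separated 6 sheep from 10. In 7 of the 10 sheep above the gap, the mean of the study's epithelial differentiation genes was below 7.13 log2 CPM, the lowest value of any sheep in blocks 2 to 4. Without these 7 sheep, 124 genes rose and 21 fell with the score. In the middle sheep, whose scores spanned only 5.51 to 6.52, no gene rose and 3 fell (0.0187%) by limma, with 1290 genes at an unadjusted p under 0.05. Of the genes higher in muscle-rich sheep 68.2% had a positive slope in the middle sheep, and of those lower 50.8% had a negative slope, against 49.6% and 50.4% of all genes.

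**Figure D2:**
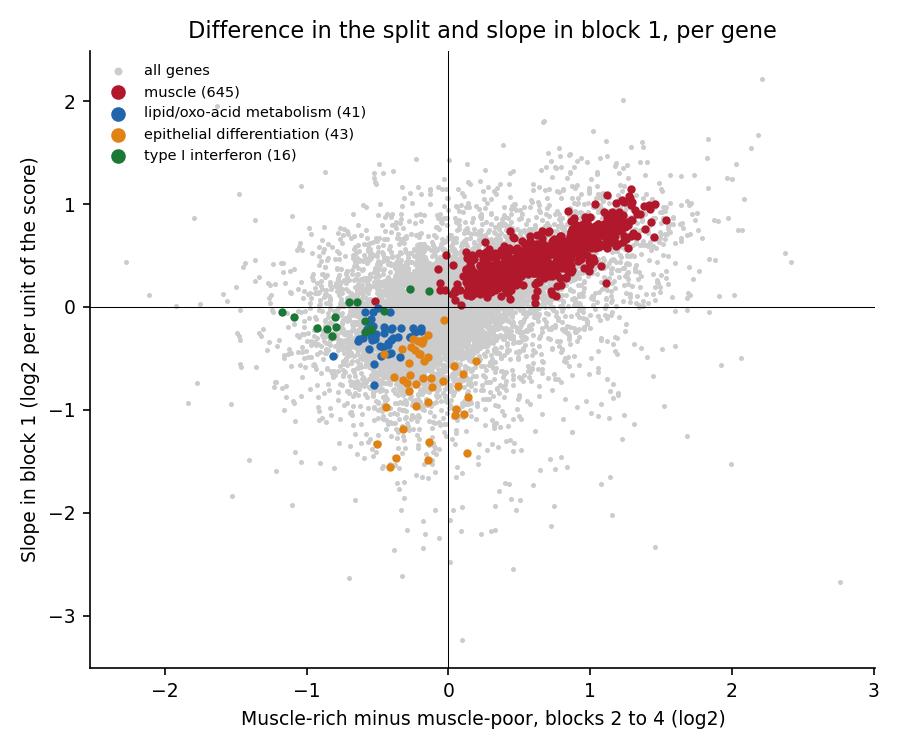
Difference between muscle-rich and muscle-poor sheep of blocks 2 to 4 (horizontal, log2) against the slope on the score in block 1 (vertical, log2 per unit of the score), 1 point per gene, with 4 of the study's gene lists coloured. The 645 muscle genes all have a positive slope in block 1, while the 16 interferon genes lie left of 0 with slopes near 0.

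The contractile apparatus lay on the muscle side. Members of this and the following lists could be matched only by symbols from the study. Most symbols belong to genes of the study's own lists. These were drawn from genes shared by a network on these same libraries and one on other sheep in New Zealand. Counts of list members in either comparison therefore describe the lists and are no independent test. All 18 measured members of a list of smooth muscle contractile genes were higher in muscle-rich sheep, with a median difference of 1.19 (range 0.70 to 1.46), and 17 of 18 rose with the score in block 1, with a median slope of 0.85. Over all genes the median slope was -0.01. Without the 7 block 1 sheep low in epithelial differentiation genes, 7 of the 18 rose and the median slope was 0.93. DES (desmin, the intermediate filament of muscle) had a lowest, median and highest level of 11.52, 13.16 and 14.54 log2 CPM in muscle-rich sheep and of 11.15, 11.52 and 12.998 in muscle-poor sheep. Its difference was 1.43 ± 0.21 (SE), or 2.69-fold, and its slope in block 1 was 0.95 ± 0.18 (adjusted p = 0.00131, limma).

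CALD1 (caldesmon, which binds actin and restrains myosin) had 10.44, 11.51 and 12.29 log2 CPM against 9.36, 10.11 and 10.95. Its difference of 1.46 ± 0.18 was the largest of this list, and it rose in block 1 by 1.00 ± 0.13 per unit of the score (adjusted p = 4.92e-05). MYH11, the smooth muscle myosin heavy chain, was at 12.87, 13.91 and 14.66 in muscle-rich and at 12.13, 12.86 and 13.62 in muscle-poor sheep. The groups overlapped for all 3 genes, with 11, 12 and 12 muscle-rich sheep above every muscle-poor sheep for DES, CALD1 and MYH11. SYNPO (synaptopodin, an actin-associated protein) had the smallest difference of the list, 0.70 ± 0.14, and a slope in block 1 of 0.54 ± 0.18 that did not pass (adjusted p = 0.0588).

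**Figure D3:**
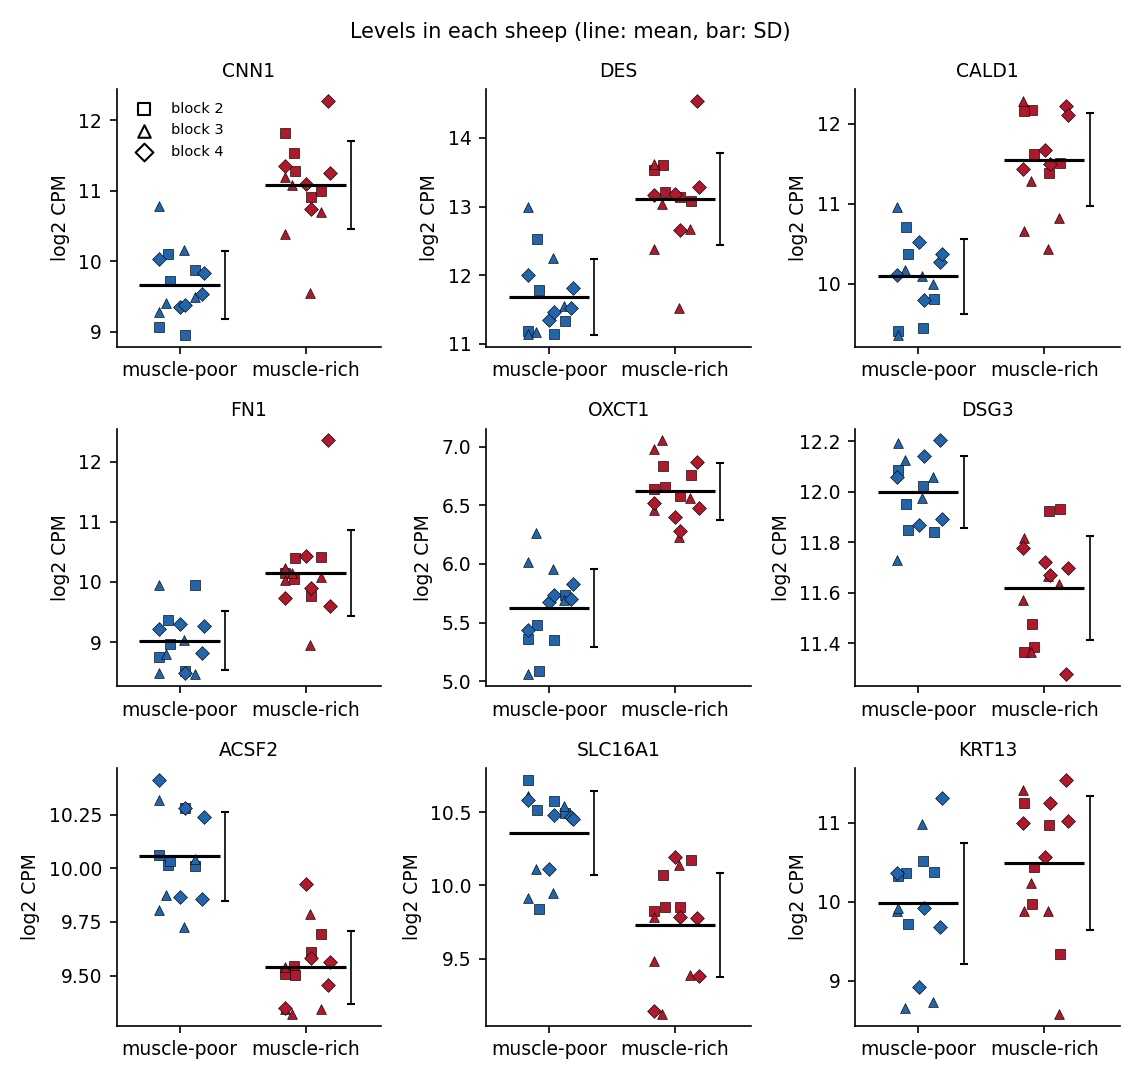
Level of 9 genes (log2 CPM) in the 15 muscle-poor and the 15 muscle-rich sheep, with symbols for block, a line at the mean and a bar of 1 SD. The muscle genes in the top row, FN1 and OXCT1 are higher in muscle-rich sheep, DSG3, ACSF2 and SLC16A1 are lower, and the groups of KRT13 overlap over most of their range.

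Genes of calcium handling and excitation went the same way. All 21 were higher in muscle-rich sheep, with a median difference of 0.89, and all 21 rose in block 1, or 8 of 21 without the same 7 sheep. RYR3 (a ryanodine receptor, which releases calcium from stores) had 4.76, 5.75 and 6.32 log2 CPM against 3.08, 4.51 and 4.86, with 14 muscle-rich sheep above every muscle-poor one. Its difference was 1.33 ± 0.17 and its slope in block 1 was 0.69 ± 0.14 (adjusted p = 0.00262). JPH2 (junctophilin, which ties the store to the surface membrane) differed by 1.26 ± 0.13. ROCK2 (a kinase that sustains contraction) had the smallest difference, 0.22 ± 0.05, and still rose in block 1 by 0.27 ± 0.05 (adjusted p = 0.00239).

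Genes that anchor the filaments to the membrane and to neighbouring cells were higher as a whole. All 25 members of the adhesion and dense plaque list were higher, with a median difference of 0.98, and 24 of 25 rose in block 1, or 11 of 25 without the 7 sheep. FLNC (filamin C, which crosslinks actin) differed by 1.27 ± 0.19, and VCL (vinculin) had the smallest difference, 0.63 ± 0.07. In the dystrophin complex, which links the cytoskeleton to the matrix, 6 of 7 were higher. DTNA (dystrobrevin) had 5.63, 5.90 and 6.45 log2 CPM in muscle-rich and 3.63, 4.74 and 5.44 in muscle-poor sheep.

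For DTNA every muscle-rich sheep was thus above every muscle-poor sheep, which held for 12 genes (0.075%) of the table, while 1 gene (0.00625%) was higher in every muscle-poor sheep. CLGN (calmegin, a chaperone of the endoplasmic reticulum) was another, at 4.23, 4.75 and 5.53 against 2.33, 3.13 and 4.08, and its difference of 1.53 ± 0.16 was the largest among genes with a symbol that passed in both comparisons. SNTB2 (a syntrophin) differed by only 0.06 ± 0.06. All 5 caveola genes were higher, from 0.76 ± 0.10 for PTRF (cavin-1) to 1.05 ± 0.15 for SDPR (cavin-2), and all 5 rose in block 1, or 2 of 5 without the 7 sheep.

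Matrix genes were divided. Of 25 fibrillar matrix genes, 20 were higher, with a median difference of 0.66, and in block 1 11 rose and 1 fell, while without the 7 sheep none passed in limma, with 11 at an unadjusted p under 0.05. FN1 (fibronectin) had 8.96, 10.08 and 12.35 log2 CPM against 8.46, 8.97 and 9.95, and rose in block 1 by 0.87 ± 0.18 (adjusted p = 0.00286). Its highest value came from 1 muscle-rich sheep far above the other 14.

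The chains of the main fibrillar collagens were not among the called genes. COL1A1 differed by 0.38 ± 0.21, COL1A2 by 0.37 ± 0.17 and COL3A1 by 0.43 ± 0.19, and their slopes in block 1 were 0.33 ± 0.20, 0.11 ± 0.16 and 0.08 ± 0.15 (adjusted p = 0.294, 0.71 and 0.792). For each of the 3, muscle-rich sheep reached both below and above all muscle-poor sheep. PCOLCE2 (an enhancer of collagen processing) differed by 1.11 ± 0.19 between the groups, yet its slope in block 1 of 0.23 ± 0.13 did not pass (adjusted p = 0.239). ECM1 (a secreted matrix protein) was the smallest of the list in size, at -0.17 ± 0.15. MMP1, a collagenase at low and widely spread levels, was the only member to fall in block 1, by 1.73 ± 0.53 (adjusted p = 0.038).

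Basement membranes surround smooth muscle cells and also underlie the epithelium. Of 12 such genes, 11 were higher in muscle-rich sheep and rose in block 1, and 4 rose there without the 7 sheep. NID2 (nidogen, a linker of laminin and collagen IV) differed by 1.20 ± 0.14 and LAMC1 (the laminin gamma 1 chain) by 1.02 ± 0.12. LAMA3, the chain of epithelial laminin, was the exception, with 7.32, 8.23 and 8.46 log2 CPM in muscle-rich and 8.21, 8.51 and 8.73 in muscle-poor sheep. Its slope in block 1, -0.12 ± 0.12, did not pass (adjusted p = 0.549).

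Among regulators, 18 of 21 mesenchymal transcription factors were higher, with a median difference of 0.46, and 11 rose in block 1, with a median slope of 0.38. SOX5 differed by 1.24 ± 0.19 and ZEB1, a repressor of epithelial genes, by 1.19 ± 0.17. Of 27 chromatin regulators, 6 (against 13.6% of all genes) were higher between the groups, with a median of 0.16. In block 1, 9 rose (against 7.61% of all genes), with a median slope of 0.40. Without the 7 sheep, 1 of the transcription factors rose and the median slope was 0.29, and none of the chromatin regulators passed in limma, with 3 at an unadjusted p under 0.05 and a median slope of 0.13. TET1 (a 5-methylcytosine oxidase) differed by 0.98 ± 0.16, CHD3 (a nucleosome remodeller) by 0.80 ± 0.11, and SETD5 by -0.01 ± 0.09.

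Genes named for other cell types also stood on the muscle side, as far as they could be matched. Symbols covered 3 of 13 endothelium and pericyte, 5 of 12 neuron and glia and 2 of 5 adipocyte genes. Since most symbols belong to the study's network lists, genes outside those lists could rarely be counted. Of the 17 measured genes usually tied to striated muscle, 15 were higher, with a median difference of 1.03, and 15 rose in block 1, or 6 without the 7 sheep. KLHL41 (a sarcomere-associated protein) had 4.92, 5.87 and 6.31 log2 CPM against 3.22, 4.39 and 5.26, and rose in block 1 by 0.68 ± 0.22 (adjusted p = 0.0459). PYGM, the muscle glycogen phosphorylase, differed by 1.32 ± 0.26, and TRIM63 (a ubiquitin ligase of muscle) by -0.14 ± 0.07. All 5 measured neuron and glia genes were higher, with a median of 1.18, and rose in block 1, of which 1 did so without the 7 sheep. They were led by MAP1A (a microtubule protein) at 1.29 ± 0.17 and MAP1B at 1.21 ± 0.18.

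All 3 measured endothelium and pericyte genes were higher, with a median of 0.41 and MCAM at 1.05 ± 0.12, and 2 rose in block 1. ACACB and PLIN4, the 2 measured adipocyte genes, differed by 1.24 ± 0.18 and 1.10 ± 0.19. The summed levels of these lists were not wholly apart. The mean of the neuron and glia list ran from 5.65 to 6.82 log2 CPM in muscle-rich and from 4.56 to 6.13 in muscle-poor sheep, and that of the adipocyte list from 5.22 to 6.56 and from 3.51 to 5.80. No member of the mesothelium, interstitial cell of Cajal or immune cell lists could be matched by symbol. The part of such cells in the muscle side was not tested.

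**Figure D4:**
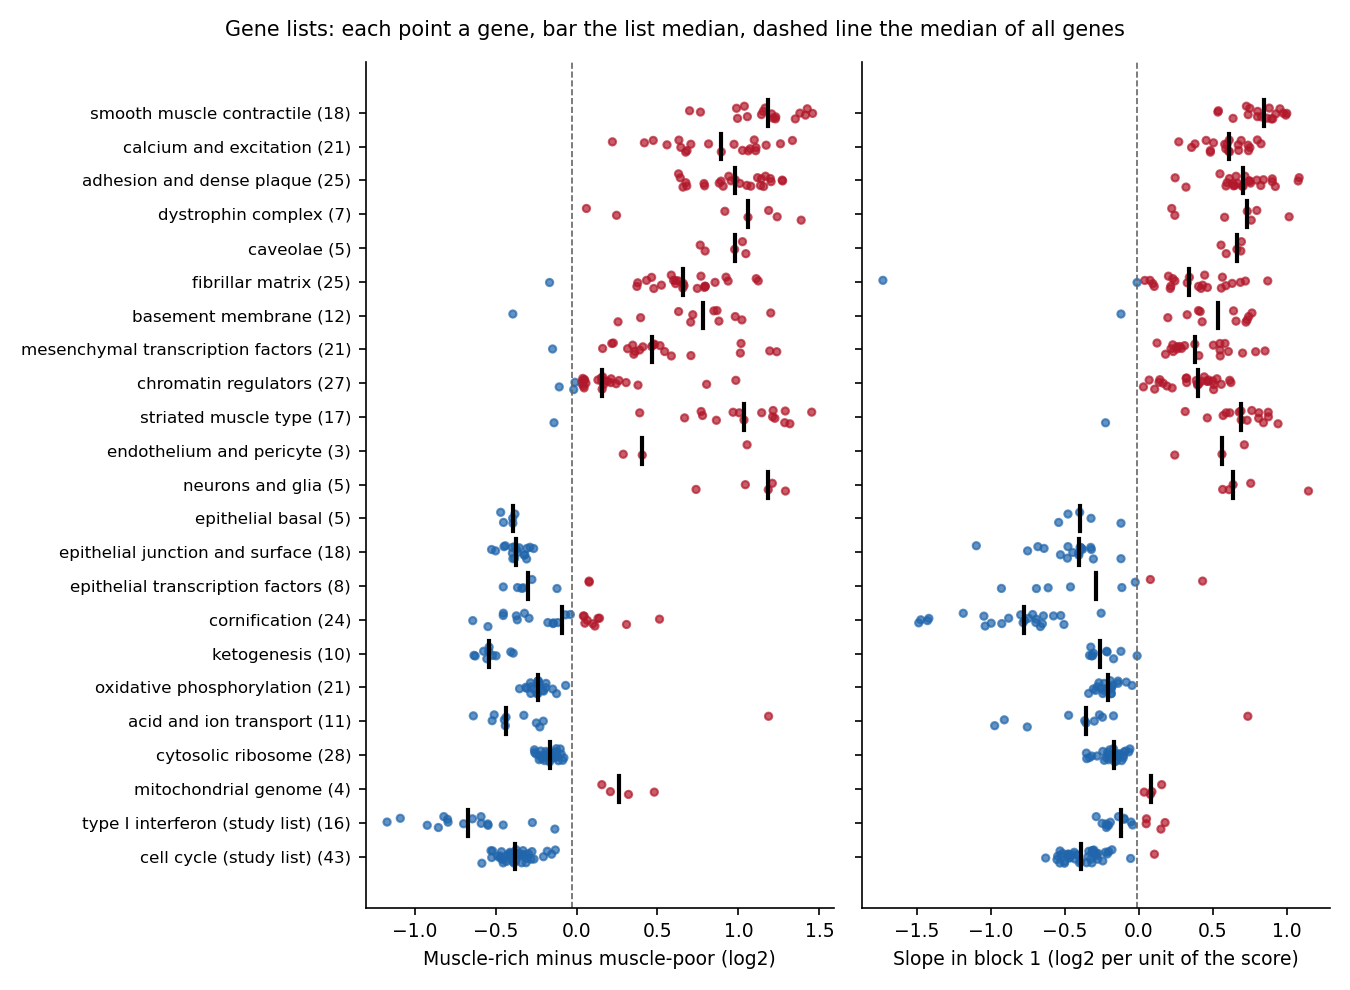
Genes of each list (number in brackets) by the difference between muscle-rich and muscle-poor sheep (left, log2) and by the slope on the score in block 1 (right, log2 per unit of the score), with a bar at the list median and a dashed line at the median of all genes. The contractile list is centred at 1.19 on the left and at 0.85 on the right, and the cornification list is centred at -0.09 on the left and at -0.78 on the right.

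Genes of the epithelium lay on the other side. Symbols covered 5 of 12 basal epithelial genes. All 5 were lower in muscle-rich sheep, with a median difference of -0.39, and 3 fell in block 1. Without the 7 sheep none passed in limma and 0 had an unadjusted p under 0.05. The lists overlap, as LAMA3 of the basement membranes is counted here and among the junction and surface genes below. DSG3 (a desmosomal cadherin of stratified epithelium) had a lowest, median and highest level of 11.28, 11.67 and 11.93 log2 CPM in muscle-rich and of 11.73, 12.02 and 12.20 in muscle-poor sheep. In 10 muscle-poor sheep it exceeded every muscle-rich sheep, and in block 1 it fell by 0.48 ± 0.13 per unit of the score (adjusted p = 0.0242).

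All 18 genes of epithelial junctions and surfaces were lower, with a median of -0.38, and 17 of 18 fell in block 1, while without the 7 sheep 1 fell. POF1B (an actin-binding protein of epithelial junctions) had 7.19, 7.63 and 8.004 log2 CPM against 7.76, 8.12 and 8.44, and fell in block 1 by 0.75 ± 0.14 (adjusted p = 0.00187). CDH1 (E-cadherin) had the smallest difference, -0.26 ± 0.08. Of 8 epithelial transcription factors 4 were lower and 3 fell in block 1, against 12.1% and 5.3% of all genes. OVOL1 differed by -0.45 ± 0.11 and TFAP2A by 0.08 ± 0.19. In the middle sheep the median slope was 0.04 for basal genes, -0.09 for junction and surface genes and -0.36 for these factors.

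Genes of the outermost, cornified layer were in part lower. Of 24 cornification genes 8 were called lower in muscle-rich sheep (12.1% of all genes were), none was called higher and 16 did not pass. The median difference was -0.09, with 14 differences negative and 10 positive (range -0.64 to 0.51). KRT13, a keratin of stratified epithelium, had 8.58, 10.57 and 11.55 log2 CPM in muscle-rich and 8.66, 9.93 and 11.32 in muscle-poor sheep, an overlap over nearly the whole range. S100A9 (a calcium-binding protein of barrier epithelia) differed by 0.05 ± 0.25.

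In block 1 the same list had a median slope of -0.78 and all 24 slopes were negative, of which 7 passed. KRT78 fell by 1.47 ± 0.47 (adjusted p = 0.0443) and S100A9 by 1.05 ± 0.32 (adjusted p = 0.0362) per unit of the score. Without the 7 sheep low in epithelial differentiation genes, the median slope was -0.29 and none of the 24 passed in limma, with 2 at an unadjusted p under 0.05. In the middle sheep the median slope was -1.02, with none passing in limma and 10 at an unadjusted p under 0.05. Over all 32 sheep outside the split, which include those 7, the median slope was -0.80 and 16 fell. LYPD2 was the cornification gene lowest in muscle-rich sheep among those that passed in both comparisons, at -0.55 ± 0.12.

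Ketone body synthesis, the pathway by which rumen epithelium handles butyrate, was lower throughout. All 10 members were lower in muscle-rich sheep, with a median difference of -0.54 (range -0.63 to -0.39). ACSF2 (an acyl-CoA synthetase) had 9.32, 9.54 and 9.93 log2 CPM in muscle-rich and 9.73, 10.03 and 10.41 in muscle-poor sheep, and fell in block 1 by 0.31 ± 0.09 (adjusted p = 0.026). SLC16A1, a carrier of monocarboxylates such as ketone bodies, had 9.12, 9.78 and 10.19 against 9.84, 10.48 and 10.72. For each of these genes 10 muscle-poor sheep were above every muscle-rich one.

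The difference in SLC16A1 was -0.63 ± 0.11, but its slope in block 1 of -0.32 ± 0.15 did not pass (adjusted p = 0.174). ECHS1 (an enoyl-CoA hydratase) had the smallest difference, -0.39 ± 0.07, and fell in block 1 by 0.31 ± 0.09 (adjusted p = 0.0254). In all, 3 of the 10 fell in block 1, with a median slope of -0.26. Without the 7 sheep none passed in limma, with 7 at an unadjusted p under 0.05 and a median slope of -0.45, while in the middle sheep the median slope was 0.33 with no member passing. The list of ketone body and acetate use held only 2 genes, OXCT1 and ACSS1, and both lay on the opposite side. OXCT1, which activates acetoacetate, had 6.23, 6.58 and 7.05 log2 CPM in muscle-rich and 5.06, 5.69 and 6.26 in muscle-poor sheep and rose in block 1 by 0.45 ± 0.08 (adjusted p = 0.000957). ACSS1, a mitochondrial acetyl-CoA synthetase, differed by 1.00 ± 0.16 and rose by 0.88 ± 0.08 (adjusted p = 1.35e-06).

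Of 11 genes of acid and ion transport, 9 were lower and 1 higher. CA12 (a carbonic anhydrase) differed by -0.64 ± 0.13, ATP6AP2 (a subunit of the proton pump) by -0.21 ± 0.06. SLC12A2 (a sodium, potassium and chloride cotransporter) had 6.03, 6.52 and 7.27 log2 CPM in muscle-rich against 4.70, 5.45 and 6.32 in muscle-poor sheep, and rose in block 1 by 0.74 ± 0.12 (adjusted p = 0.000625). Nuclear-encoded oxidative phosphorylation was lower in 17 of 21 genes, with a median of -0.24, from -0.35 ± 0.08 for UQCR10 to -0.07 ± 0.06 for COX4I1, and 4 fell in block 1. The 4 measured genes of the mitochondrial genome had differences of 0.16 to 0.48, none called by limma and 0 at an unadjusted p under 0.05. Of 28 cytosolic ribosomal proteins 9 were lower, with a median of -0.16, and 4 fell in block 1. Over all genes 12.1% were lower and 5.3% fell in block 1. In the middle sheep the median slope was 0.20 for ion transport, 0.05 for oxidative phosphorylation and 0.15 for the ribosome. No gene of oxidative phosphorylation or of the ribosome passed in limma in block 1 without the 7 sheep, and 0 had an unadjusted p under 0.05.

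The study had sorted genes into lists by networks built on these same libraries and on those of a separate experiment in New Zealand. The lists are thus not independent of the libraries used here. Of its 645 muscle genes measured outside the rule, 584 were higher and 1 lower, with a median of 0.63, and 497 rose and none fell in block 1, or 95 and none without the 7 sheep. The lower gene, ENSOARG00000007573, has no symbol here and differed by -0.52 ± 0.16. Within the list, 30 of 31 genes of muscle system process were higher, with a median of 1.10, 47 of 50 of extracellular matrix organization, with 0.68, 41 of 46 of cell motility, with 0.55, and 117 of 146 of transcription, with 0.41. KMT2D (a histone methyltransferase) at -0.02 ± 0.11 and UBR4 (a ubiquitin ligase) at -0.02 ± 0.05 were among the members with the smallest differences.

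Of the epithelial lists, all 41 lipid/oxo-acid metabolism genes were lower, with a median of -0.46, and 16 fell in block 1, where all 41 slopes were negative. Without the 7 sheep none passed in limma, with 20 at an unadjusted p under 0.05. The largest difference was that of SULT1C2 (a sulfotransferase), -0.81 ± 0.17, and the smallest that of SDHA (a subunit of succinate dehydrogenase), -0.19 ± 0.06. Cell cycle genes were lower in 28 of 43, with a median of -0.38, and 15 fell in block 1, or none in limma without the 7 sheep, with 3 at an unadjusted p under 0.05. BUB1B, a mitotic checkpoint kinase, differed by -0.53 ± 0.14 and PLK1, another mitotic kinase, by -0.13 ± 0.15. General metabolism was lower in 28 of 42 and other metabolism in 254 of 354, against 12.1% of all genes. In the middle sheep the median slope was 0.30 for lipid/oxo-acid metabolism, 0.10 for general and for other metabolism, and -0.30 for cell cycle.

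Of the 43 epithelial differentiation genes, 17 were lower between the groups (12.1% of all genes were), with a median of -0.19. Their differences were negative for 34 genes and positive for 9. In block 1 26 of 43 fell (5.3% of all genes did), with a median slope of -0.69, and all 43 slopes were negative. Without the 7 sheep low in this list, 1 fell and the median slope was -0.32. In the middle sheep the median slope was -0.44.

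Type I interferon genes, which cells switch on against viruses, were lower in muscle-rich sheep of blocks 2 to 4 in 14 of 16, with a median of -0.67. MX1 (an antiviral GTPase) had 2.95, 4.75 and 7.45 log2 CPM in muscle-rich and 3.795, 5.99 and 7.84 in muscle-poor sheep, and OAS2 (an antiviral synthetase) had 4.73, 5.50 and 7.31 against 5.64, 6.61 and 7.87. Both genes spread widely within each group and the groups overlapped. The median difference of the list was -0.35 in block 2, -0.81 in block 3 and -0.996 in block 4.

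None of the 16 passed in block 1 by limma, nor had any an unadjusted p under 0.05 (0 of 16), and their median slope was -0.12. None passed without the 7 sheep either, with 6 at an unadjusted p under 0.05 and a median slope of -0.33. MX1 had a slope of -0.05 ± 0.32 (adjusted p = 0.936). With sheep ranked by CNN1 and LMOD1, 2 of the 16 were lower, with a median of -0.33. ZNFX1 had the smallest difference, -0.13 ± 0.11. The list mean ran from 4.57 to 6.16 log2 CPM in muscle-rich and from 5.03 to 6.85 in muscle-poor sheep.

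**Figure D5:**
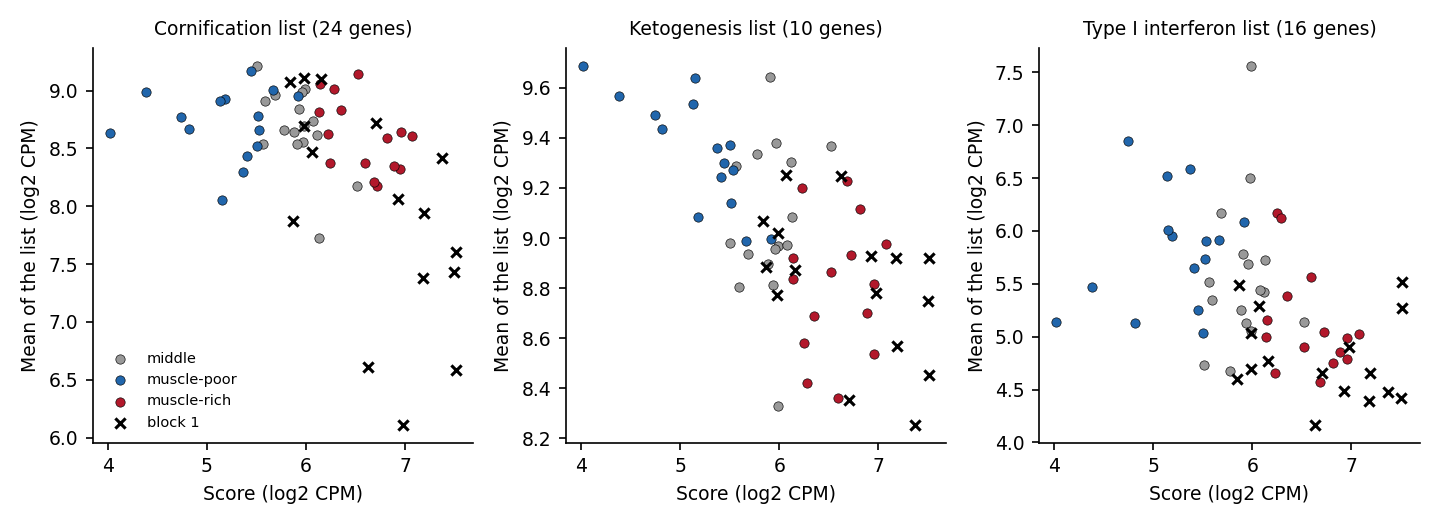
Mean level of 3 gene lists (log2 CPM) against the score in each of the 62 sheep, with crosses for block 1. The ketogenesis means run from 8.99 to 9.69 in muscle-poor and from 8.36 to 9.23 in muscle-rich sheep, the lowest cornification means are block 1 sheep with scores above 6.6, and the interferon means of muscle-poor sheep reach from 5.03 to 6.85.

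Most genes that passed in both comparisons had no place in those lists. Of the 998 genes on the muscle side in both comparisons, 484 belonged to the study's muscle list and 514 to no list, of which 14 had a symbol. Of the 475 on the epithelial side, 305 belonged to no list. SAMD4A and OLFML2B, of no study list, were among the 10 genes with a symbol of largest difference on the muscle side, with 1.37 ± 0.14 and 1.39 ± 0.20, as were SYNPO2 and DNAJB5 of the muscle list, with 1.38 ± 0.18 and 1.43 ± 0.18. On the epithelial side, among genes of the other metabolism list, HPGD, which inactivates prostaglandins, had 6.24, 6.74 and 7.26 log2 CPM in muscle-rich and 6.91, 7.35 and 7.78 in muscle-poor sheep and fell in block 1 by 0.72 ± 0.18 (adjusted p = 0.0144). RBP2 (a retinol-binding protein) and SERPINB10 (a serine protease inhibitor) differed by -0.55 ± 0.12 and -0.56 ± 0.10.

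The size of the difference was compared between blocks. No gene passed the test of block by group in limma (0.0%), with 567 genes at an unadjusted p under 0.05. The contractile list had a median difference of 1.59 in block 2, 0.72 in block 3 and 1.22 in block 4, and the score itself differed by 1.71, 1.20 and 1.25 between the groups of those blocks. The ketogenesis list had -0.46, -0.54 and -0.61.

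Traits of the sheep did not enter the score and were compared by permuting the groups within blocks 100000 times, two-sided. The study had, however, singled out both genes of the score for associations with traits in these sheep. It related higher NEXN to lower CH4 yield, and KCNMA1 to the retention time of feed in the rumen. The tests below are therefore not independent of the traits. CH4 production ranged from 13.4 to 34.0 g/d with a mean of 22.1 ± 5.74 (SD, n = 15) in muscle-rich and from 18.5 to 34.6 g/d with a mean of 26.1 ± 4.52 (SD, n = 15) in muscle-poor sheep. The difference of -3.98 ± 1.89 g/d (SE) had a permutation p = 0.0437 and an adjusted p = 0.175 over the 4 traits, so it did not pass. It was -1.06, -5.41 and -5.46 g/d in blocks 2, 3 and 4. With sheep ranked by CNN1 and LMOD1 it was -2.16 g/d (permutation p = 0.265), and without 1 muscle-rich sheep of block 4 that had a DMI of 0.376 kg/d it was -3.43 g/d (permutation p = 0.0824). DMI was 1.14 ± 0.353 kg/d and 1.27 ± 0.271 kg/d (SD), with a difference of -0.134 ± 0.105 kg/d and a permutation adjusted p = 0.43. That difference was -0.0879 kg/d without the sheep of low DMI, -0.0632 kg/d with sheep ranked by CNN1 and LMOD1, and -0.242, -0.0746 and -0.0857 kg/d without block 2, 3 or 4.

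CH4 yield was 20.3 ± 4.69 and 20.9 ± 2.85 g/kg DMI (SD), with a difference of -0.536 g/kg and a 95% interval from -3.15 to 2.08 (permutation adjusted p = 0.713). The sheep of low DMI had a yield of 35.7 g/kg, and without it the difference in yield was -1.56 ± 0.855 g/kg (permutation adjusted p = 0.176). Live weight was 64.5 ± 7.66 and 66.0 ± 8.12 kg (SD), with a difference of -1.53 ± 2.74 kg (permutation adjusted p = 0.713), which ran from -3.45 kg without block 2 to 0.40 kg without block 3. No trait passed, and the intervals leave room for differences in either direction for DMI, yield and weight.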

How the data were processed

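One library per sheep was prepared from total RNA of the ventral rumen wall. The authors deposited voom log2 CPM values. Alignment used TopHat with Bowtie2, on sheep models of Ensembl, and HTSeq did the counting (edgeR and limma also appear in the submitters' processing notes). The values cover 16011 genes. Whole reads were recovered from them (100% of values, tolerance 0.01 reads, offset 0.5), which gave 4208032 to 12130080 assigned reads per library. Low genes rest on few reads.

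Groups came from the labelled block and the score of NEXN and KCNMA1. Differences and slopes were fitted to all genes in limma 3.58.1 (R 4.3.3, empirical Bayes with trend, Benjamini-Hochberg adjustment over 16009 genes, checked on simulated data). Traits were tested by permutation in Python 3.11.15 with numpy 2.4.6. CH4 yield was computed as CH4 production over DMI. Symbols came from the study's tables and cover 1224 genes.

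Members and gene lists were chosen with earlier results of these data known. Genes named in the text are the markers, the 10 largest differences in each direction among genes with a symbol passing in both comparisons, the largest and smallest members of each list, and members against a list's direction. Other list members were chosen after their values were seen, and some genes the rule names are not reported here. Alternatives were other tails, scores, filters, scalings, weights and subsets of sheep. The sheep with an implausible DMI, left out of the traits, was in neither group. No sequences or coordinates are given, because the RefSeq table used holds no Ensembl IDs.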

Additional observations from a re-analysis of the deposited data

Results flagged for a closer look

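The slope on the score was compared between block 1 and blocks 2 to 4 over 62 sheep, a test chosen after seeing the data. It differed for 32 of 16009 genes (0.2%) in limma at an adjusted p under 0.05, with 1577 at an unadjusted p under 0.05, and in 31 of the 32 the slope was lower in block 1. Without the 7 block 1 sheep low in epithelial differentiation genes no gene passed, with 702 at an unadjusted p under 0.05. Those with a symbol were ELF3 (an epithelial transcription factor), whose slope in block 1 minus that in blocks 2 to 4 was -0.63, and PRKCH (a protein kinase C of stratified epithelium), with -0.57.

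Of these genes, 2 were called in opposite directions by the comparisons of the report. ENSOARG00000021095 differed by 2.76 ± 0.43 between muscle-rich and muscle-poor sheep and had a slope of -2.68 ± 0.86 in block 1, and its slope difference was -3.90. It held 0 to 736 reads per library, at 0 reads in 1 muscle-poor and 1 block 1 library. ENSOARG00000018445 differed by 0.39 ± 0.14, had a slope of -0.66 ± 0.18, and its slope difference was -0.87.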

How the results depend on the processing

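The 2173 higher and 1938 lower genes became 1137 and 822 without block 2, and 1441 and 1052 without block 4. Under the other alternatives of the split both counts stayed within 1.5 times, including 2298 and 2124 without the 2 sheep placed in opposite tails by CNN1 and LMOD1, chosen after seeing the data. In block 1, the 1218 rising and 849 falling genes became 124 and 21 without the 7 sheep low in epithelial differentiation genes, and 631 and 105 with the score of CNN1 and LMOD1, and the falling genes became 487 without the sheep of highest and lowest score. In the middle sheep 31 genes rose with the score of CNN1 and LMOD1 and 0 fell after quantile normalization. The 32 slope differences became 0 without the 7 sheep. With the score of CNN1 and LMOD1, CH4 production differed by -2.16 g/d and DMI by -0.0632 kg/d, against -3.98 and -0.134. Live weight turned to 0.40 kg without block 3, and CH4 yield to 0.00796 g/kg with 3 sheep per tail and to 0.262 g/kg without block 2. The cause of these changes was not tested. No paired analysis was possible because each sheep gave 1 library and the groups hold different sheep. Low depth limits genes of few reads.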
